A study of Homo sapiens with 8 samples.

Results

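The kinesins are motor proteins that walk along microtubules. The genes described here are the protein-coding genes whose symbol begins with KIF, or with KLC and a digit, except KIFAP3 and KIFBP, which encode partners of the motors. Of 46 such genes, 44 had at least 20 counts summed over the 4 input libraries and were kept, out of 60664 genes in the count tables. KIF2B, with 2 input counts, and KIF12, with 0, fell below that floor. The members just above it were KIF25 with 42 input counts and KIF19 with 71. CENPE and STARD9 are kinesins by protein family but not by symbol, and are described with the partner genes.

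The counts come from selective ribosome profiling, which reads the stretches of mRNA shielded by ribosomes during RNase digestion (RPFs), first in the total ribosome pool and then in ribosomes whose nascent chain is held by a chosen chaperone. TRiC is the ring-shaped chaperonin of the cytosol, and prefoldin (PFD) is a chaperone known to hand unfolded chains to it. U2OS is a human osteosarcoma line, and HaloTag was placed by genome editing in CCT4, a TRiC subunit, in the CCT4-Halo line and in PFD4, a prefoldin subunit, in the PFDN4-Halo line, each grown from a single clone. Both lines received 100 µg/ml cycloheximide during 1 min to stop translation and then DSP, an amine-reactive crosslinker, at 2 mM during 30 min, before RNase I digestion and a sucrose cushion.

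Each line gave an input, which is its total ribosome fraction, and a pulldown, which is what anti-HaloTag beads retained of it. These 4 groups had 2 biological replicates each. All groups carried a tagged chaperone, so that no pulldown from untagged cells enters the comparisons. Each line was compared with its own input, and line, library preparation and chaperone cannot be told apart between lines. The libraries held from 9523128 counts (PFD pulldown replicate 1) to 32637658 (TRiC pulldown replicate 1). The spread between replicates was much wider in the PFD line, with a common dispersion (edgeR's estimate of the squared variation between replicates beyond counting) of 0.331 against 0.0153 for TRiC. Markers fixed for mesenchymal and bone cells summed to between 8809 and 25290 CPM (normalised counts scaled to a library of 1000000), against at most 18.2 for epithelial, 26.1 for neuronal and 0.199 for blood cell markers. COL1A2 was the exception among the former, at most 1.74 CPM in the inputs.

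A kinesin motor domain binds ATP in a pocket whose phosphate-binding loop (P-loop) is shared across the family, and uses hydrolysis to step along or to depolymerise a microtubule. Heavy chains of kinesin-1 carry cargo with the help of light chains (KLC genes), kinesin-2 and kinesin-3 motors move vesicles and ciliary cargo, and a further set builds the mitotic spindle and the midbody. In dividing tumour cells such as U2OS the mitotic motors are made in quantity. Actin and tubulin are the classical clients of TRiC, and tubulin forms the track on which kinesins run.

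The coding bases of the P-loop are shown first for 9 members, because they encode part of the ATP pocket of the motor. KIF4A and KIF4B, whose values differ below, are also nearly the same gene there. KIFC3 matched the loop pattern given next at 2 places, and the first is shown. Capitals mark the 24 bases that encode the loop (glycine, any 4 residues, glycine, lysine, and threonine or serine), and lower case marks up to 9 bases on each side, read 5′ to 3′ from the GENCODE 44 canonical transcript on hg38.
KIF5B: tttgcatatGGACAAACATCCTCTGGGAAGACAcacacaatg
KIF13A: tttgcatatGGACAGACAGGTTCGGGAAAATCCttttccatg
KIF16B: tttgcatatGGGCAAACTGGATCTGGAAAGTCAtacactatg
KIF14: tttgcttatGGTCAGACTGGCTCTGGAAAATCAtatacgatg
KIF20A: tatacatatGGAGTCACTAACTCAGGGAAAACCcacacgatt
KIF27: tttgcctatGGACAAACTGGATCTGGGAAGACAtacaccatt
KIFC3: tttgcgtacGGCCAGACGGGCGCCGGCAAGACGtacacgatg
KIF4A: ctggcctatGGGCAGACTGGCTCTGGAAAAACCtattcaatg
KIF4B: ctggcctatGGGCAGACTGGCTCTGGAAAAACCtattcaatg

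These loops lie in coding exons at chr10:32040396-32040419 (minus strand) for KIF5B, chr1:200615360-200615383 (minus) for KIF14, chr5:138182425-138182448 (plus) for KIF20A and chr9:83915319-83915342 (minus) for KIF27. The loop of KIF16B lies at chr20:16515569-16515592 (minus), that of KIFC3 at chr16:57764155-57764178 (minus), that of KIF4A at chrX:70297024-70297047 (plus) and that of KIF4B at chr5:155014121-155014144 (plus). In KIF13A the loop is split over exons within chr6:17855604-17856039 (minus). KIF4A and KIF4B had 0 differences in the 24 loop bases. Over their whole coding sequences, 29.2% of the 30-base windows of KIF4B occurred exactly in KIF4A, and only uniquely aligned fragments were counted. A fragment of that length from such a window has more than 1 exact placement and would be left out of both counts. Among the other members at most 0.270% of such windows were shared with any other member (KLC3 with KLC2). With the protein cut into 3 equal stretches, the loop began in the N-terminal one in 35 members and in the central one in 5, and the 4 light chains have none. It began at residue 84 of 1401 in KIF27 and at residue 528 of 826 in KIFC3, whose motor lies at the C terminus.

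The kinesin genes took up between 0.292% and 0.457% of all counts of a library, with 0.423% and 0.454% in the TRiC inputs and 0.302% and 0.297% in the PFD inputs. Mitotic spindle and cytokinesis motors made up most of that in both lines, at 67.8% of the family's input CPM in the TRiC line and 55.8% in the PFD line. Kinesin-1 heavy chains followed in the TRiC line with 10.6%, and kinesin-2 and kinesin-3 transport motors in the PFD line with 15.2%. Kinesin light chains accounted for 3.14% and 4.45%.

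Per coding length, KIF20A, a motor of the central spindle needed for cytokinesis, stood highest in the TRiC input with 203 ± 5.98 CPM per coding kilobase (SD, n = 2). KIFC1, a minus-end-directed spindle motor, came next at 194 ± 2.30 and its libraries lay just below those of KIF20A without overlap. KIF2C, a depolymerase at centromeres, stood at 178 ± 11.7, KIF5B, the ubiquitous kinesin-1 heavy chain, at 148 ± 7.01, and KIF23, the motor of the centralspindlin complex, at 142 ± 2.56. The libraries of KIF5B and KIF23 overlapped, as did those of 22 of the 43 neighbouring pairs in this order. In the PFD input the order began with KIF2C at 122 and KIF5B at 106 CPM per coding kilobase, and KIF20A stood at rank 10 with 36.1. At the low end, KIF19 and KIF25 had 0 counts in both PFD inputs, and KIF26B had 7 and 0.

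**Figure D1:**
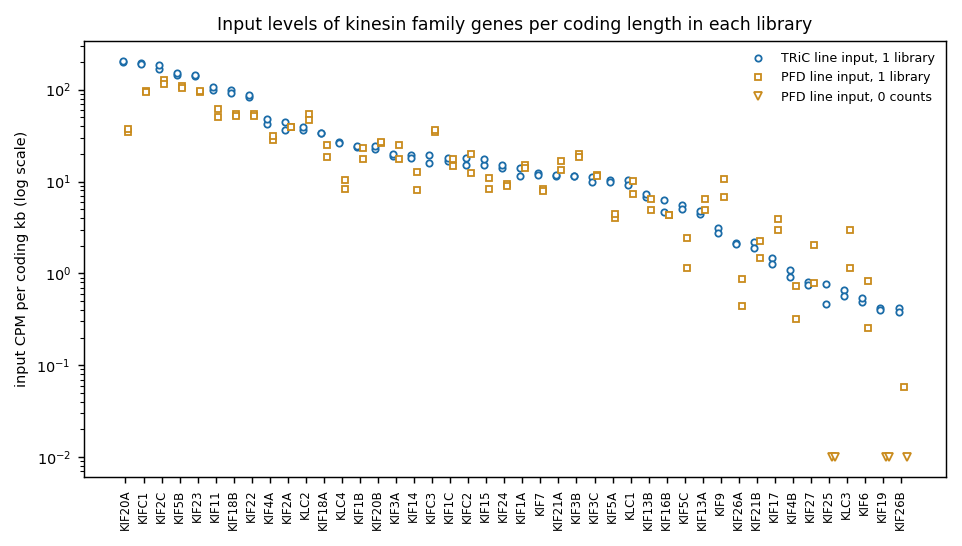
Input CPM per coding kilobase (log scale) of the 44 kinesin genes in each input library, ordered by the TRiC line; circles are TRiC inputs, squares PFD inputs, and triangles mark libraries with 0 counts. KIF20A is first in the TRiC line at 203 and at rank 10 in the PFD line at 36.1.

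Among the 40 kinesin genes with at least 1 CPM in the inputs of both lines, KIF20A differed most. With all 8 libraries scaled together, its input was 525.9 and 548.4 CPM in the TRiC line and 95.7 and 99.8 CPM in the PFD line, 5.50-fold apart. Of all genes with at least 1 CPM in both inputs, 3.24% were at least 4-fold higher in the TRiC line. Of these 40 kinesin genes, 8 were at least 2-fold apart in either direction (20.0%, against 22.8% of all genes). KIF26A, KIF5C, KLC4 and KIF5A were also higher in the TRiC line, between 2.35-fold and 3.16-fold, and KIF9, KIF17 and KIFC3 were higher in the PFD line, between 2.06-fold and 3.04-fold. Below that level, KIF26B averaged 2.50 CPM in the TRiC input and 0.186 CPM in the PFD input, and KIF19 1.21 CPM in the TRiC input against 0 counts. These are differences between libraries of separately made lines and were not tested, and fewer cells translating a gene cannot be told apart from fewer ribosomes on it per cell.

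In the TRiC pulldown the family as a whole shifted little, and single members moved in both directions. All 44 genes passed the filter on low counts. The edgeR quasi-likelihood test with Benjamini-Hochberg adjustment called 7 of them higher than input (KIFC2, KIF27, KLC1, KIF16B, KIFC3, KIF13A and KIF14) and 2 lower (KIF20A and KIF4B). The background over all 17934 genes tested was 8.64% called higher and 10.6% called lower, against 15.9% and 4.55% of the kinesin genes. Over the family the median log2 fold change was 0.08, against -0.003 over all genes tested and -0.03 over protein-coding genes. It was above 0 in 27 of 44 members (61.4%), against 49.7% of all genes. In 21 members both pulldowns exceeded both inputs, and in 7 both lay below, or 47.7% and 15.9% against 29.3% and 31.2% of all genes. Shares over genes of like coding length were not taken, and log2 fold change rose with that length over protein-coding genes (Spearman's rho 0.35). With all 8 libraries in 1 fit, where the wider spread of the PFD libraries is shared, none of the 44 was called, and 31 of all 18855 genes were (16 higher and 15 lower). Leaving out a library, which leaves 1 library in a group, changed the number of calls over the kinesin genes and over all genes. Most called members lost their call without TRiC input replicate 2, and fewer of all genes were called there as well. The median of the family ran from 0.064 to 0.13 in these fits. The split of calls also moved with the scaling. Over all genes 1550 were higher and 1894 lower with TMM, 1801 and 1265 with library totals, and 1604 and 1392 with cyclic loess, and over the kinesin genes the counts became 8 and 1 with library totals and 11 and 1 with cyclic loess.

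**Figure D2:**
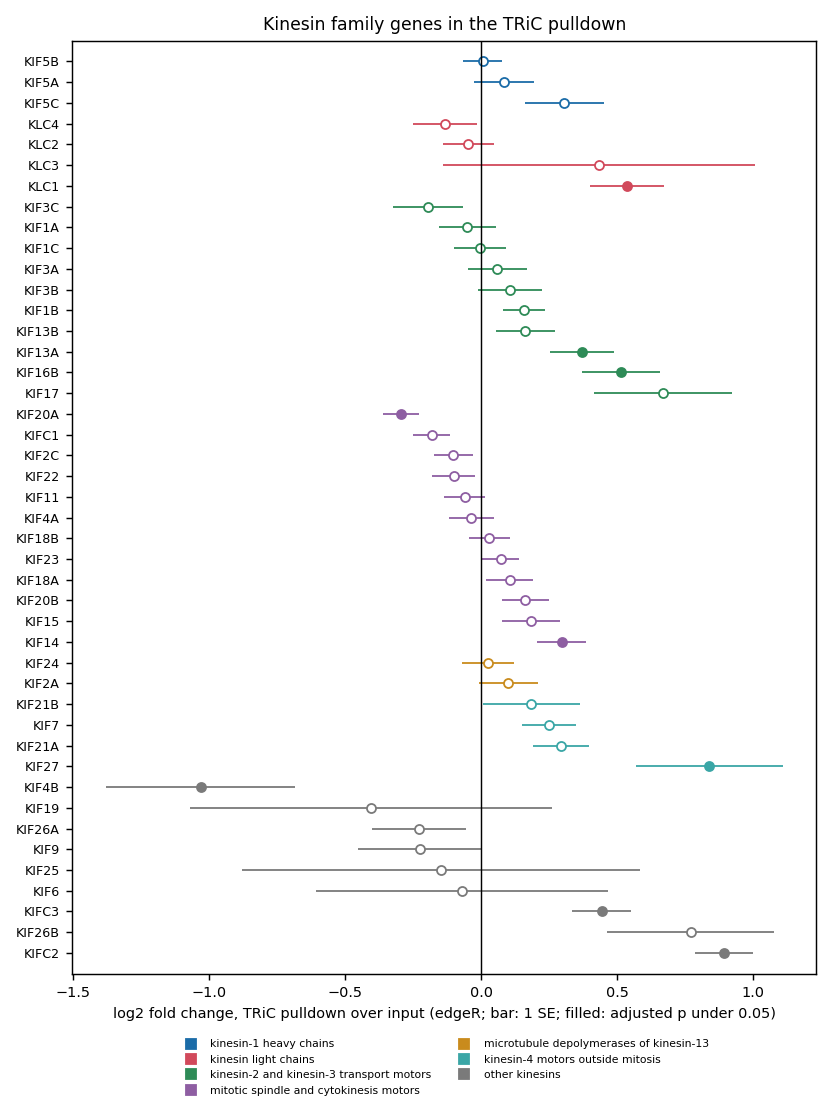
Log2 fold change of TRiC pulldown over input for the 44 kinesin genes, grouped and coloured by role, with 1 SE (edgeR, 2 libraries a group); filled points have an adjusted p under 0.05. Filled points to the right are the 7 higher members, led by KIFC2 at 0.89, and those to the left are KIF20A at -0.30 and KIF4B at -1.03.

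KIFC2, a minus-end-directed kinesin with a C-terminal motor, had the smallest adjusted p of the family. Its inputs stood at 42.6 and 35.5 CPM and its TRiC pulldowns at 74.7 and 70.4 CPM. Both pulldowns lay well above both inputs, and the log2 fold change was 0.89 ± 0.11 (SE), or 1.86-fold, with an adjusted p of 2.76e-05 by edgeR. It was called in 10 of the 11 other fits, the exception being the fit of all 8 libraries (adjusted p = 0.358). In the PFD line the inputs were 47.5 and 29.5 CPM and the pulldowns 38.8 and 56.3 CPM, which overlap. An opposite-strand gene overlaps 17.8% of its exon bases. Which strand setting was counted is not given in the sources used here, so that fragments of the opposite-strand gene cannot be told apart there.

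KIFC3, another C-terminal motor, linked to cell junctions and the Golgi, rose less. It went from 48.3 and 39.7 CPM in the TRiC inputs to 62.54 and 57.04 CPM in the pulldowns, with no overlap. The log2 fold change was 0.44 ± 0.11 (adjusted p = 0.00867, edgeR), and without TRiC input replicate 2 it was 0.30 with an adjusted p of 0.236. The opposite-strand share of its exon bases is 5.60%.

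KIFC1, the spindle motor of this structural class, did not pass the test, at a log2 fold change of -0.18 ± 0.07 (adjusted p = 0.0704, edgeR). It was called lower in the fit with the replicate number as a block. Its pulldowns, at 350.2 and 341.5 CPM, were below its inputs at 395.6 and 389.0 CPM.

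Of the 4 kinesin light chains, which couple kinesin-1 to cargo, 1 rose (25.0%, against 8.64% of all genes) and none fell. KLC1 stood at 19.8 and 17.7 CPM in the TRiC inputs and at 24.6 and 29.7 CPM in the pulldowns, and the groups did not overlap. Its log2 fold change was 0.54 ± 0.14 (1.45-fold, adjusted p = 0.0105, edgeR), and it was not called without TRiC input replicate 2 (adjusted p = 0.138). The gene lies at chr14:103561896-103714249 on the plus strand of hg38. KLC1 has the largest opposite-strand overlap of the 44 members, at 30.3% of exon bases, and 10.3% of its exon bases lie under another gene on its own strand. KLC2 and KLC4, the most abundant light chains, had log2 fold changes of -0.05 ± 0.09 and -0.13 ± 0.12, neither of which passed the test. KLC2 was at 0.021 under cyclic loess, and KLC4 ran from -0.35 to 0.059 with libraries left out. KLC3 was near the detection limit, at 28 and 26 counts in the TRiC inputs.

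None of the 3 kinesin-1 heavy chains was called. KIF5B, which carries mitochondria and lysosomes among other cargo, stood at 413.2 and 441.8 CPM in the TRiC inputs and at 412.5 and 446.4 CPM in the pulldowns. The ranges nearly coincide, and the log2 fold change was 0.01 ± 0.07. KIF5A, the form best known from neurons, was at 0.08 ± 0.11, and the largest value of the group was 0.31.

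The kinesin-2 and kinesin-3 transport motors included 2 called members among 10, both higher (20.0%, against 8.64% of all genes). KIF16B, a kinesin-3 that binds endosomal lipids through a PX domain, rose from 25.0 and 18.3 CPM to 29.5 and 32.3 CPM. The pulldowns lay above the inputs, but the inputs themselves were far apart, and the log2 fold change of 0.51 ± 0.14 (adjusted p = 0.0172, edgeR) fell to 0.29 (adjusted p = 0.366) without TRiC input replicate 2 and rose to 0.76 without replicate 1. KIF13A, a kinesin-3 of recycling endosomes and melanosomes, rose from 23.8 and 25.6 CPM to 31.2 and 32.6 CPM, a log2 fold change of 0.37 ± 0.12 (adjusted p = 0.0340, edgeR). Both pulldowns exceeded both inputs, and it was called in 8 of 12 other fits, but not with all 8 libraries in 1 fit, without either input replicate or without pulldown replicate 2. KIF1B and KIF1A, the most abundant of the group, had log2 fold changes of 0.16 ± 0.08 and -0.05 ± 0.10 and were not called. Under cyclic loess KIF1B was at 0.25 and called (adjusted p = 0.0287), and KIF1A was at 0.024. Over the group the log2 fold changes ran from -0.20 to 0.67 around a median of 0.13.

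Among the 12 mitotic spindle and cytokinesis motors 1 rose and 1 fell, and the median log2 fold change was -0.003. That was 8.33% each way, against 8.64% higher and 10.6% lower of all genes tested. KIF4A is among the 12, and KIF4B is listed with the other kinesins. KIF14, which acts in cytokinesis with citron kinase, rose from 96.5 and 89.0 CPM to 107.1 and 120.9 CPM, a log2 fold change of 0.30 ± 0.09 (adjusted p = 0.0272, edgeR), and lost its call in the same fits as KIF13A. KIF20A fell from 531.3 and 553.9 CPM in the TRiC inputs to 437.7 and 446.7 CPM in the pulldowns. Neither gene's groups overlapped, and for KIF20A the log2 fold change was -0.30 ± 0.07, a change of -18.5%, with an adjusted p of 0.00497 by edgeR. Under cyclic loess scaling it was -0.16 (adjusted p = 0.0985) and was not called, nor was it without TRiC input replicate 2 (adjusted p = 0.0954). The opposite-strand share of its exon bases is 5.35%. KIF23, at 0.07 ± 0.07 (0.21 and called under cyclic loess, adjusted p = 0.0353), and KIF2C, at -0.10 ± 0.07 (0.029 under cyclic loess), are among the most abundant members and did not pass the test.

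All 4 genes listed as kinesin-4 motors outside mitosis had positive log2 fold changes in the TRiC pulldown, against 49.7% of all genes tested. Of these 4, 1 was called higher (25.0%, against 8.64% of all genes). KIF4A and KIF4B, kinesin-4 motors listed in other groups, were at -0.04 and -1.03, and KIF4B was called lower. KIF27, a relative of the ciliary regulator KIF7, rose from 3.43 and 3.17 CPM to 6.69 and 5.08 CPM. The groups did not overlap, and the log2 fold change was 0.84 ± 0.27 (adjusted p = 0.0360, edgeR), on 95 and 96 input counts. It was called in 5 of 11 other fits, and an opposite-strand gene covers 10.7% of its exon bases. KIF21A, a motor that restrains microtubule growth, was at 0.29 ± 0.10 with an adjusted p of 0.0551 (called in 6 of 12 other fits), and KIF7, a regulator of Hedgehog signalling at the cilium tip, at 0.25 ± 0.10 with an adjusted p of 0.0899 (called in 4 of 11), both by edgeR. The kinesin-13 depolymerases KIF2A and KIF24 stood at 0.10 ± 0.11 and 0.03 ± 0.10 and were not called.

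KIF4B, an intronless near-copy of the chromosome motor KIF4A, fell from 4.04 and 3.37 CPM to 1.83 and 1.79 CPM. The inputs held 112 and 102 counts, the pulldowns held 61 and 45, and the groups did not overlap. The log2 fold change was -1.03 ± 0.35 (adjusted p = 0.0456, edgeR), and it was called in 4 of 12 other fits, including neither DESeq2 nor the fit without opposite-strand overlap. KIF4A itself stood at 157.0 and 177.4 CPM in the inputs and 161.1 and 165.3 CPM in the pulldowns, with a log2 fold change of -0.04 ± 0.08. Fragments from the exactly shared windows would be left out of both counts. Elsewhere up to 2 mismatches were allowed, and whether fragments of either gene were counted for the other was not tested. The counts of both genes are therefore uncertain. The other 6 uncalled members of the mixed group ran from -0.40 to 0.77, and most had few counts.

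**Figure D3:**
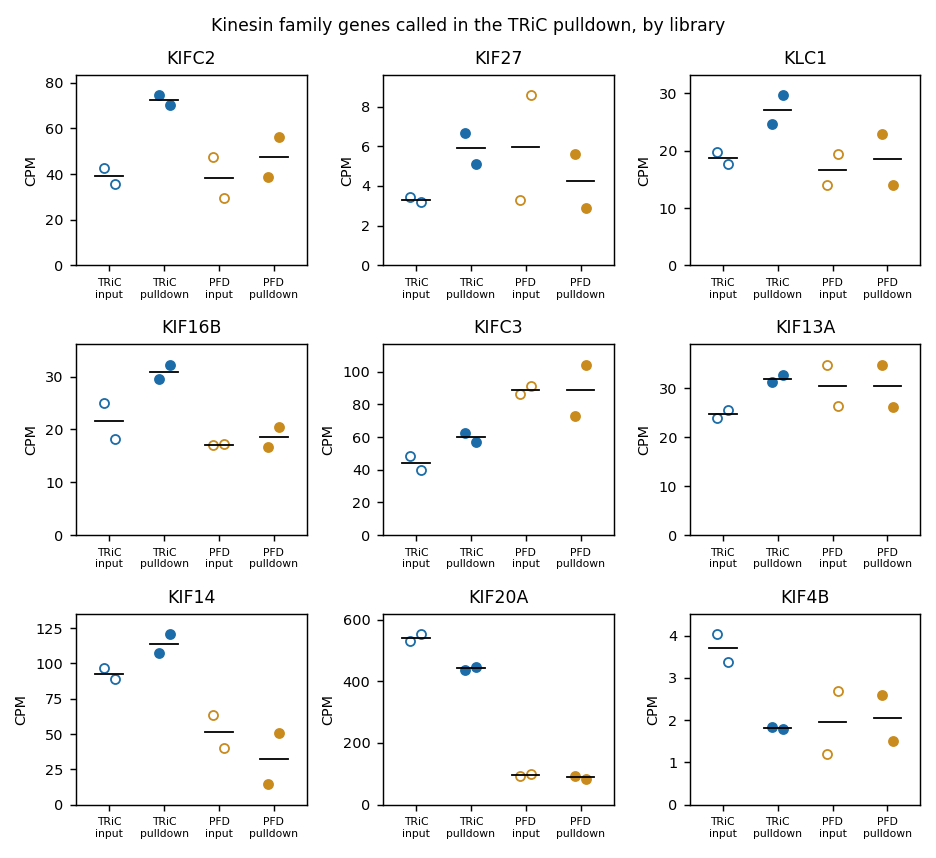
CPM in each library for the 9 kinesin genes called in the TRiC pulldown; open points are inputs, filled points pulldowns, blue the TRiC line, ochre the PFD line, and black lines the mean of 2 libraries, with each axis starting at 0. In the TRiC line, by whose calls these genes were chosen, the groups are separate in all 9 panels, and in the PFD line they overlap in all 9. Over all genes tested, both pulldowns were above both inputs in 29.3% (TRiC) and 18.3% (PFD), and below in 31.2% and 20.4%.

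Most called members were among the less abundant ones, KIF20A and KIF14 being the exceptions. Of the 22 members with the lowest TRiC input CPM (0.716 to 44.01 CPM), 6 were called higher and 1 lower, with a median log2 fold change of 0.17. Of the other 22 (48.5 to 542.6 CPM), 1 was called higher and 1 lower, with a median of 0.02. The same split was not made over all genes tested, of which 8.64% were called higher and 10.6% lower at all levels. These counts are therefore not shown to be particular to the kinesin genes. Spearman's rho between log2 fold change and input CPM was -0.21 over the 44 genes and -0.29 over 14611 protein-coding genes tested. With coding length it was 0.28 over the members and 0.35 over the protein-coding genes. Over the 40 members with a P-loop it was 0.02 with the residue at which the loop begins and 0.32 with the number of residues after it. In 35 of them the loop begins in the N-terminal stretch, so that the residues after it are most of the protein. The last value is therefore not separate from that with coding length. These correlations are across genes of the same libraries, which are not independent replicates.

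**Figure D4:**
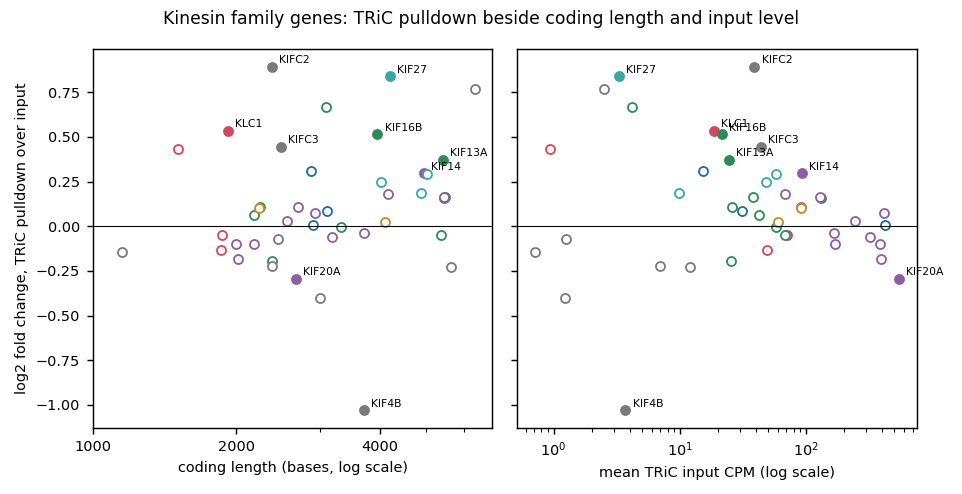
Log2 fold change of TRiC pulldown over input for the 44 kinesin genes beside coding length (left, log scale) and mean TRiC input CPM (right, log scale), coloured by role as in the plot of all members; filled points were called. Among the members rho is 0.28 with length and -0.21 with level, against 0.35 and -0.29 over protein-coding genes. Of the 9 filled points, 7 are among the 22 members with the lowest level, a split not made over all genes.

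Of 3 nuclear non-coding RNAs looked at, MALAT1 and NEAT1 rose in the TRiC pulldown. MALAT1 stood at 29.6 and 14.3 CPM in the inputs and 75.0 and 64.5 CPM in the pulldowns (log2 fold change 1.67 ± 0.20, adjusted p = 3.17e-05, edgeR), and NEAT1 had a log2 fold change of 1.54 ± 0.23. KCNQ1OT1, at 0.433 and 0.231 CPM in the inputs and 1.17 and 0.199 CPM in the pulldowns, did not pass the test (adjusted p = 0.460, edgeR). Their part in the kinesin results was not tested.

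In the PFD pulldown no kinesin gene was called. In both lines the fits used counts over whole genes. The authors tested positions along each coding sequence, which such counts do not hold. A gene that was not called here is therefore not shown to be unbound. Of the 44 genes, 42 passed the filter, KIF19 and KIF25 being left out, and the background was 0.0496% of 14111 genes higher and 0.191% lower. At an unadjusted p under 0.05 edgeR had 1 kinesin gene, and DESeq2 called 1 (KIF11, log2 fold change 0.52, adjusted p = 0.0237). That was 2.38% of the members, against 1.79% of all genes called higher and 1.99% called lower by DESeq2. The median log2 fold change was -0.004, against -0.0005 over all genes tested, and 20 of 42 members (47.6%) were above 0. The median SE of the members was 0.32 in the PFD line and 0.11 in the TRiC line.

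KIF11, the kinesin-5 that pushes spindle poles apart, had the lowest p and is named after its values were seen. It stood at 193.6 and 158.8 CPM in the PFD inputs and at 273.0 and 228.5 CPM in the pulldowns, which lie above both inputs. The log2 fold change was 0.51 ± 0.16 with an unadjusted p of 0.0129 and an adjusted p of 0.676 by edgeR. In the TRiC line its log2 fold change was -0.06 ± 0.07.

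The replicates of the PFD pulldown disagreed for several members, which were also chosen after their values were seen. KIF17, a kinesin-2 of cilia and dendrites, had 12.1 and 9.25 CPM in the inputs but 1.08 and 14.4 CPM in the pulldowns. KIF14 had 63.2 and 39.8 CPM in the inputs and 14.4 and 50.7 CPM in the pulldowns, so that its log2 fold change of -0.65 ± 0.54 comes mainly from replicate 1. KIF5A had 12.3 and 13.7 CPM in the inputs and 46.0 and 13.1 CPM in the pulldowns. In each case PFD pulldown replicate 1, the shallowest library, stood apart from the other 3. Without PFD pulldown replicate 2, so that replicate 1 alone stood for the pulldown, 5 members were called higher (KIF11, KIF1A, KIF5A, KIF7 and KLC4) and 3 lower (KIF14, KIF17 and KIF2A), or 11.9% and 7.14% of 42, against 6.996% and 8.76% of all genes in that fit. Without replicate 1 no member was called. KIF26B gave the highest value, 4.06 ± 2.12, with inputs of 7 and 0 counts against pulldowns of 30 and 97.

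The difference between both pulldowns, each against its own input, was tested as an interaction over all 8 libraries. No kinesin gene was called out of 44 tested, against a background of 0.0212% of 18855 genes called in favour of the TRiC pulldown and 0.0159% in favour of the PFD pulldown. At an unadjusted p under 0.05 edgeR had 1 member. DESeq2 called 0, against 2.46% of all genes in favour of the TRiC pulldown and 2.76% in favour of the PFD pulldown. For KIFC2 the difference was 0.60 (adjusted p = 0.506, edgeR), for KIF14 0.92 (adjusted p = 0.567) and for KIF20A -0.15 (adjusted p = 0.580). The calls in the TRiC line are therefore not shown to be particular to it. Without PFD pulldown replicate 2, 6 members differed in favour of the TRiC pulldown and 5 in favour of the PFD pulldown, KIF14 among the former. These were 13.6% and 11.4% of the 44, against 11.6% and 6.73% of all genes in that fit.

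Called partners of kinesins lay in both directions in the TRiC pulldown. Of 24 partner genes, 23 were tested, and 3 rose and 2 fell (13.04% and 8.70%, against 8.64% and 10.6% of all genes tested), around a median of -0.02. STARD9, a very large mitotic kinesin of the centrosome, rose from 33.7 and 34.7 CPM to 77.1 and 75.4 CPM, a log2 fold change of 1.16 ± 0.10 (adjusted p = 3.55e-07, edgeR), which exceeded that of any of the 44 family members. MAPK8IP3 (JIP3), an adaptor between kinesin-1 and vesicles, rose from 46.0 and 37.9 CPM to 75.7 and 83.3 CPM (0.92 ± 0.11, adjusted p = 2.2e-05, edgeR). TRAK2, which links kinesin-1 to mitochondria, rose by 0.37 ± 0.13 on the log2 scale (adjusted p = 0.0459, edgeR). The groups did not overlap in any of these.

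The partners that fell were AURKB, the kinase of the chromosomal passenger complex that works with KIF20A at the midzone, at -0.46 ± 0.09 (adjusted p = 0.00251, edgeR), and MAP7D1, a microtubule protein that recruits kinesin-1, at -0.34 ± 0.08 (adjusted p = 0.00571, edgeR). AURKB stood at 122.5 and 116.4 CPM in the inputs and at 94.2 and 78.7 CPM in the pulldowns. KIFAP3, the third subunit of kinesin-2, at 0.07 ± 0.12, KIFBP, which binds and restrains motor domains, at -0.12 ± 0.09, and CENPE, the kinetochore kinesin, at 0.23 ± 0.10 (adjusted p = 0.121, edgeR), did not pass the test. CENPE stood at 221.8 and 257.5 CPM in the inputs and at 246.4 and 315.1 CPM in the pulldowns, which overlap. In the PFD pulldown 0 of 22 tested partners were called, with 2 at an unadjusted p under 0.05 by edgeR.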

How the data were processed

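Count tables of 8 selective ribosome profiling libraries were analysed, and groups were taken from the sample labels. The deposited values are raw counts per gene, which the authors made from trimmed reads with UMI-tools for molecular identifiers, Bowtie2 2.4.2 to remove non-coding RNA and STAR 2.7.10a on hg38 to align and count, allowing up to 2 mismatches and keeping uniquely placed reads only. The annotation release and the strand setting are not given in the sources used here. Identifiers were named with GENCODE 44, which matched 60463 of 60664 genes, and coding sequences came from its canonical transcripts.

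Pulldown and input were compared within each line by edgeR 4.0.16 in R 4.3.3 (filterByExpr, TMM, quasi-likelihood test, Benjamini-Hochberg adjusted p under 0.05), fitted over all genes. The difference between lines was an interaction over 8 libraries. CPM values use the TMM library sizes of each line. Fold changes carry the SE of the fit, and other errors are SD over 2 replicates. The scripts were tested on simulated data. Alternatives were DESeq2 1.42.0, the replicate number as a block, scaling by library totals, cyclic loess with limma-trend 3.58.1, other count filters, removal of genes with opposite-strand overlap, all 8 libraries in 1 fit, and each library left out. The members and lists were chosen with earlier results of these data known. Named genes are all called members and the 2 most abundant of each role group, and all called partners; others named were chosen after their values were seen.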

Additional observations from a re-analysis of the deposited data

How the results depend on the processing

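Over the genes tested, the deviations of same-numbered libraries correlated at 0.057 in the TRiC and -0.011 in the PFD line. Whether such libraries share a batch was not tested beyond this correlation. A fit with the replicate number as a block called 10 kinesin genes higher and 3 lower in the TRiC pulldown and none in the PFD pulldown. For TRiC these were 22.7% and 6.82% of the members, against 11.4% and 14.8% of all genes. The 7 higher and 2 lower genes of the TRiC pulldown became 11 and 1 under cyclic loess (25.0% and 2.27%, against 8.94% and 7.76% of all genes). They became 0 and 0 with all 8 libraries in 1 fit. Among the 21 members without opposite-strand overlap they became 3 and 0 (14.3% and 0%, against 8.39% and 8.61% of all genes). The lower count was 1 with DESeq2, library totals and no filter, where 9.02%, 7.05% and 5.43% of all genes were called lower. The TRiC median was 0.13 with library totals, 0.14 under cyclic loess and 0.13 without opposite-strand overlap. DESeq2 called 1 gene higher in the PFD pulldown (1.79% of all genes). Without a filter, 1 (KIF14) had a larger change in the TRiC line (0.569% of all genes). When each library was left out in turn, the TRiC pulldown gave 1 to 9 higher and 0 to 4 lower genes and a median of 0.064 to 0.13. The PFD pulldown gave 0 to 5 higher and 0 to 3 lower genes and a median of -0.063 to 0.082, and the difference 0 to 6 larger and 0 to 5 smaller changes. The cause of these shifts was not tested, apart from the fewer genes or libraries in a fit.

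None of the 9 called members changed sign in the TRiC pulldown under the 11 or 12 alternatives in which it was fitted. They were chosen by their calls and their groups did not overlap, so that leaving out a library could hardly reverse them. Uncalled values near 0 did change sign. Under cyclic loess KIF1A was 0.024, KIF2C 0.029 and KLC2 0.021 in the TRiC pulldown, and KIF5B was -0.0035 without a filter. With libraries left out, KIF1A ran from -0.21 to 0.11, KIF24 from -0.036 to 0.083, KIF2A from -0.038 to 0.25, KIF5B from -0.041 to 0.053, KLC2 from -0.12 to 0.021 and KLC4 from -0.35 to 0.059. In the PFD pulldown KIF13A was 0.0021 with DESeq2 and 0.042 under cyclic loess. KIFC3 there was -0.022 with the replicate block, -0.028 with library totals, -0.0030 under cyclic loess, -0.00029 without a filter, -0.00043 with at least 10 counts in every library and -0.00077 with all 8 libraries in 1 fit. With libraries left out, the PFD values ran from -0.23 to 0.20 for KIF13A, -0.038 to 0.26 for KIF16B, -1.04 to 0.33 for KIF27, -0.41 to 0.76 for KIF4B, -0.0068 to 0.68 for KIFC2, -0.29 to 0.23 for KIFC3 and -0.24 to 0.46 for KLC1.

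Several members rest on few counts, among them KIF4B, KIF27 and KIF26B, and KIF25 and KIF19 had fewer input counts still. Whether depth limited these members was not tested. Whether depth or the spread between replicates limits the PFD comparison was not tested.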
